A study of Homo sapiens with 6 samples.

Results

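The expression state of HEK293T cells given an empty plasmid was described from 3 arrays, across 29183 non-control probe sets of the 33297 on each array. These probe sets are the members, and they were chosen as every probe set of the normalised table that is not a control. Of them, 19460 carried a single gene symbol and named 18417 genes, which are the units ranked here. HEK293T is a human embryonic kidney line that carries adenovirus sequence and the SV40 large T antigen. Its cells had been transfected with pNTAP-2×flag without an insert, and total RNA was taken with TRIzol at 24 hours, of which 500 ng was labelled with biotin. The labels call the 3 arrays biological replicates and do not say whether they came from separate cultures, so the spread given may be partly technical. The series holds 3 further arrays of cells given pig VRTN in the same plasmid, and these were not used. All cells described had gone through transfection, so nothing here describes untransfected cells.

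A permanent cell line keeps dividing, and the genes of ribosomes, glycolysis, DNA replication and mitosis serve that growth. The large T antigen binds the retinoblastoma proteins, which otherwise hold back E2F transcription factors, and it also binds p53. Which tissue a cell comes from is usually read from transcription factors and from genes of specialised function, such as transporters of the kidney tubule or receptors of neurons.

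Each value is a log2 signal summarised by RMA, the authors' normalisation. Array medians over the members were 6.47, 6.47 and 6.43 on arrays 1, 2 and 3. A probe set's brightness depends on how well its probes bind as well as on the transcript, so a rank is a rank of array signal and no fold between genes is given. A low level was taken from the arrays themselves. Olfactory receptors are odorant receptors of the nose, and the 95th percentile of their 379 probe sets was 5.72, 5.64 and 5.62 on arrays 1, 2 and 3, called the olfactory reference. A stricter level, called the upper reference, was the same percentile of 121 probe sets for bitter taste receptors, keratin-associated proteins and beta defensins, at 7.84, 7.75 and 7.75. Keratin-associated proteins supplied the upper end of these, with a highest gene mean of 8.50. It was 6.52 for bitter taste receptors and 6.80 for beta defensins. With 3 arrays in a single group there is no contrast to test and no p-value is given, and having only 3 arrays limits how precise any mean can be. In a bulk sample, fewer cells of a type and less RNA per cell cannot be told apart.

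Signal above the olfactory reference on all 3 arrays was found for 13230 genes (71.8% of 18417), and above the upper reference for 6420 (34.9%). A further 4610 genes (25%) lay above the olfactory reference on no array. Over all genes the mean level had a 5th percentile of 3.78, a median of 7.08, a 95th percentile of 10.06 and a maximum of 13.40. Genes closest to the olfactory reference lay within about 0.001 of it on the deciding array. Just inside were the transcription factor SP6 (5.74, 5.64 and 5.65) and the receptor OR51S1 (5.80, 5.77 and 5.62). Just outside were OR2B6 (6.09, 6.46 and 5.62) and OSR1 (5.78, 5.71 and 5.61), both held below by array 3. Of the 360 olfactory receptor genes, 14 lay above on all 3 arrays, a small share that follows from defining the reference by their own probe sets. The highest, OR10G7, gave 6.59, 6.45 and 6.37. Keratin-associated proteins build the hair shaft, yet 38 of 67 exceeded the olfactory reference, with a median of 6.03, and KRTAP5-3 gave 8.58, 8.58 and 8.34. A signal above the olfactory reference is therefore no proof of a transcript, and counts against both references are given from here on.

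**Figure D1:**
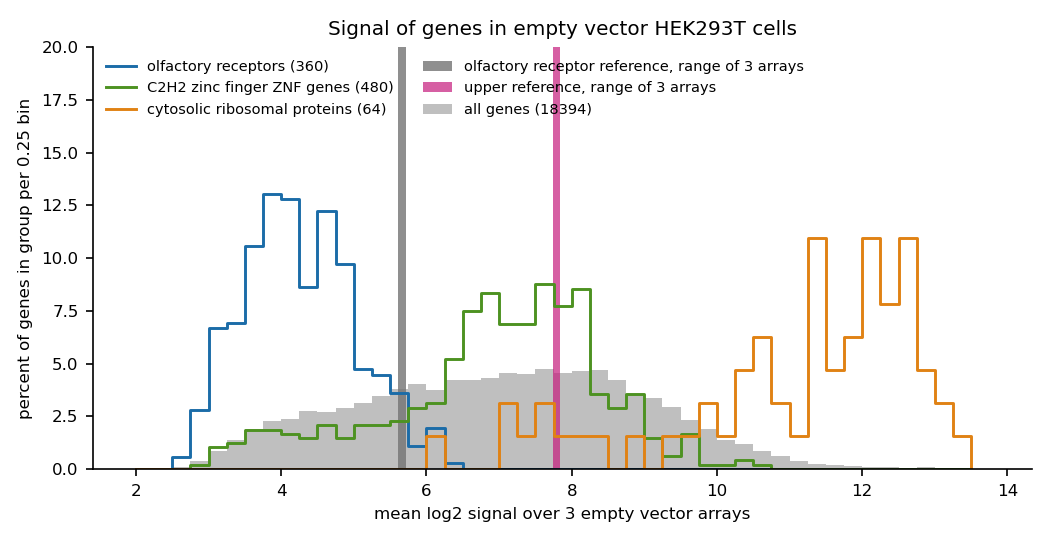
Share of genes in each bin of the mean log2 signal over the 3 arrays, for 18394 genes (grey bars) and 3 families (lines), with the number of genes in brackets. The vertical bands span the olfactory and upper references of the 3 arrays. Olfactory receptors lie mostly left of the first band with a median of 4.18, ZNF genes have a median of 7.10, and ribosomal protein genes reach 13.32.

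The brightest gene was PTMA, which encodes prothymosin alpha, a small acidic nuclear protein. Its probe set gave 13.41, 13.36 and 13.44 on arrays 1, 2 and 3. GAPDH, the glycolytic enzyme often used as a loading control, followed with 13.28, 13.36 and 13.43. SNORD13, a small nucleolar RNA that guides acetylation of ribosomal RNA, came next with 13.40, 13.30 and 13.34. The values of the 3 genes overlapped between arrays, and 23 of the 25 brightest genes were among the top 25 of each array. The other bright genes encode mainly parts of the translation machinery. RPS4X (13.32 ± 0.07, SD, n = 3), RPS2 (13.15 ± 0.02), RPL5 (12.98, 12.99 and 13.04), RPS27 (12.88 ± 0.06), RPL34 (12.84 ± 0.06), RPS28 (12.77 ± 0.02), RPL8 (12.72 ± 0.04) and RPL18 (12.70 ± 0.04) are ribosomal proteins. EEF1A1 (12.93 ± 0.06) delivers transfer RNA to the ribosome, EEF1G (12.85 ± 0.05) belongs to the complex that recharges it, and EEF2 (12.69 ± 0.02) moves the ribosome along the message. ACTG1 (12.91 ± 0.04) is cytoplasmic actin, ENO1 (12.82 ± 0.04) a glycolytic enolase, H4C3 (12.97 ± 0.04) a core histone and RNU2-1 (12.84 ± 0.07) the U2 RNA of the spliceosome.

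Several of these ranks rest on a probe set whose symbol is open to doubt. FAF2, an ubiquitin pathway factor, ranked among the brightest at 13.29 ± 0.10 (SD, n = 3), but the annotation assigns that probe set to the mitochondrial genome, and the other FAF2 probe set gave 10.30. The same holds for MPLKIP, at 12.86 against 7.91, and for SH3KBP1, at 12.60 against 8.18. In all, 48 probe sets are assigned to the mitochondrial genome, with a median of 10.64 and a range of 4.27 to 13.86, and 42 of them lay above the upper reference on all 3 arrays. Probe sets of a gene also differed. The 6 probe sets of PTMA ranged from 7.11 to 13.40, the other probe sets of RPL5 gave 9.06 and 12.54, those of RPL34 gave 7.23 and 12.84, and those of PLCG2, a signalling phospholipase, gave 7.46 and 12.77. Among the 769 genes on more than 1 probe set, the highest and lowest differed by more than 1 log2 unit in 279 (36.3%) and by more than 3 in 83. SNORD13P3 (13.03) and RPL13AP5 (12.82) are named as copies of SNORD13 and RPL13A, and whether their probes also bind the parent RNA was not tested. Signal brighter than PTMA came from 19 probe sets without a single symbol or gene name of their own, of which 9 carried U1 spliceosomal RNA symbols and 5 were mitochondrial.

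Ribosomal protein genes formed the brightest large list. All 64 exceeded the olfactory reference and 57 the upper reference, with a median level of 11.52, and 30 of the 100 brightest genes were among them. The dimmest were RPL3L (7.06 ± 0.26, SD, n = 3), known from muscle, and RPL10L (6.01 ± 0.05), known from testis. Translation factors gave 46 of 47 above the olfactory and 42 above the upper reference, with a median of 10.16. EIF1, which helps the ribosome choose a start codon, gave 11.81, 11.90 and 11.95. The exception was EIF4E, the cap-binding protein, whose probe set gave 5.37, 5.67 and 5.49 and passed the olfactory reference on array 2 alone. EIF5A2, the tissue-restricted copy of EIF5A, lay at 6.61 ± 0.14.

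All 16 glycolytic enzymes and all 8 subunits of the chaperonin TRiC, which folds actin and tubulin, exceeded the upper reference. Within glycolysis, LDHA gave 12.50, 12.64 and 12.75, PKM gave 11.88, 11.79 and 11.82, and PFKP was the dimmest at 8.23, 8.18 and 8.39. The chaperonin subunits stayed between CCT8 (10.17 ± 0.07, SD, n = 3) and CCT7 (11.70 ± 0.09). Proteasome genes gave 29 of 36 above the upper reference, with PSMA4 at 10.68 ± 0.07 and PSMB2 at 10.66 ± 0.09. At the other end stood PSMA8, a testis subunit, at 3.38 ± 0.10, and PSMD5 at 3.72 ± 0.03. Tubulins ran from TUBB (12.64 ± 0.08) to TUBB1 (4.45 ± 0.07), the platelet form, and 11 of 18 passed the upper reference. Of the 20 heterogeneous nuclear ribonucleoproteins, which package nascent RNA, 15 did so. HNRNPH1 led at 11.66 ± 0.07, while HNRNPA1 gave 6.43, 7.05 and 7.27, lowest on array 1 and with no array above the upper reference.

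Genes of DNA replication and mitosis were high as groups. All 20 replication fork genes exceeded the olfactory reference and 19 the upper reference, the exception being RPA3 (7.16 ± 0.06, SD, n = 3), the smallest subunit of the single-strand binding complex. The helicase subunits MCM5, MCM4, MCM7 and MCM3 gave means of 10.46, 10.45, 10.43 and 10.42, with SDs of 0.08, 0.01, 0.08 and 0.04, and overlapped between arrays. All 19 mitotic genes exceeded the upper reference. PLK1, a mitotic kinase, gave 10.93, 10.82 and 10.94, and MKI67, the proliferation marker Ki-67, gave 10.69, 10.72 and 10.73. Factors that the large T antigen touches were measured as well. RB1 gave 10.06, 10.25 and 10.18, its relative RBL1 9.49, 9.90 and 9.72, and RBL2 8.10, 8.43 and 8.56. MDM2, the ubiquitin ligase of p53, was the brightest of its list at 11.15, 11.51 and 11.21. CDKN1A, the p21 inhibitor of cyclin-dependent kinases, lay lower at 8.55, 8.54 and 8.32, and CDKN2A at 9.14, 9.13 and 9.28. Of the 10 E2F and DP factors, 8 exceeded the upper reference, with TFDP1 at 10.26 ± 0.10 and E2F7 at 9.96 ± 0.20.

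Histone and small nucleolar RNA genes spread over nearly the whole range of the array. Of 64 core and linker histone genes, 48 passed the olfactory and 34 the upper reference, with a median of 8.09. H1-4, a linker histone, gave 12.76, 12.59 and 12.64, and H2AC20 gave 12.53, 12.51 and 12.43. H2AC14, also a replication histone, gave 3.20, 3.14 and 3.12. Histone genes are near copies of each other, so signal can be shared between them, and H4C14 and H4C15, named after their values were seen, had the same values on each array (11.01, 10.74 and 10.74). Of 176 small nucleolar RNA genes, 110 passed the olfactory and 66 the upper reference. SNORD33, hosted in RPL13A, gave 12.90, 12.79 and 12.80, whereas SNORD115-4, of a brain-expressed imprinted cluster, gave 2.32, 2.35 and 2.39.

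What bright and dim genes share in sequence was read from RefSeq promoters of GRCh38.p14, 250 bases before and 50 after the gene start. A promoter was found for 13770 of 16900 protein-coding genes (81.5%). The observed over expected CpG ratio had a median of 0.251 in the dimmest decile of genes and 0.891 in the brightest. The share of promoters with a ratio above 0.6 was 23.6% in the dimmest and 92.8% in the brightest decile. Across genes the ratio and the level had a Spearman rho of 0.523, given as a description, since genes share the 3 arrays and are not independent, and the base composition of the probes was not used here. The motif TATAAA was searched on the given strand. It stood in 16.2% of promoters in the dimmest decile, 2.25% in the eighth and 4.28% in the brightest, against 6.38% of all measured promoters. On both strands it stood in 9.0% of measured promoters and 12% of all 27305 promoters in the reference table. No match means that these letters are not in this window.

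**Figure D2:**
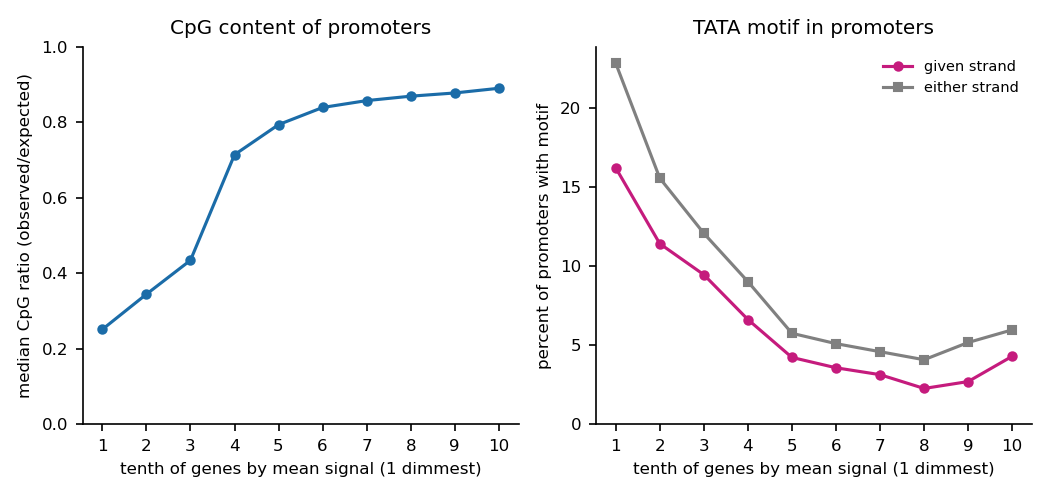
Median CpG ratio of promoters (left) and percent of promoters with the TATAAA motif (right), by decile of protein-coding genes ordered by mean log2 signal, with 1377 genes in each. The ratio goes from 0.251 to 0.891, and the motif on the given strand goes from 16.2% to 2.25% in the eighth decile and 4.28% in the brightest.

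Families differed in this respect. The motif was in 3 of 53 ribosomal protein promoters, none of 16 replication fork promoters, 34 of 59 histone promoters (57.6%) and, in a dim family, 39 of 54 promoters of keratin-associated proteins (72.2%), while the median CpG ratio was 0.914, 0.972, 0.756 and 0.182. For olfactory receptors and HOX genes under 80% had a promoter, so that check is void there. The olfactory receptor printed below stands for no family, since the check is void there. As examples picked by level, the 250 bases before the start are printed on the gene's own strand. They belong to the brightest ribosomal protein gene, the brightest histone gene with a promoter and the dimmest olfactory receptor with a promoter. Capitals mark CG and TATAAA. The first lies at chrX:72277249-72277498 (minus strand), the second at chr6:26156079-26156328 (plus) and the third at chr3:98462951-98463200 (plus). RPS4X holds 15 CG steps and no TATAAA, H1-4 holds 19 and 1, and OR5K1 (2.76, 2.77 and 2.63 on the 3 arrays) holds 1 and none.
RPS4X: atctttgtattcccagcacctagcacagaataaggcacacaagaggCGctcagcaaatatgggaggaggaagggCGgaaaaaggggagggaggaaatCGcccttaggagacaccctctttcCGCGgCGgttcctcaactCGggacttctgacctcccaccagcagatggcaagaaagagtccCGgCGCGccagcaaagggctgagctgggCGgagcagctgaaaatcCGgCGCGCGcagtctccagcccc
H1-4: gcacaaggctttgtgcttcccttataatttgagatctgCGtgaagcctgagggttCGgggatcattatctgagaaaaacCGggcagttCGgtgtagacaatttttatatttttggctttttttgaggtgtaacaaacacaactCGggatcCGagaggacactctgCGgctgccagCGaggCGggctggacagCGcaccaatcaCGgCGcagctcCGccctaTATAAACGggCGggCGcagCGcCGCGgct
OR5K1: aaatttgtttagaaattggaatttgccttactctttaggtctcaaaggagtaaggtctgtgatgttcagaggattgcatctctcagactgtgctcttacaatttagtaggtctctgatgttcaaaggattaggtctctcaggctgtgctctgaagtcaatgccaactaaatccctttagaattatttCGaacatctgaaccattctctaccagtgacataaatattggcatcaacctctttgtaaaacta

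Genes of early kidney were the brightest tissue list by median, at 6.94, though the median over all genes was higher at 7.08. Over 20 lists of tissue identity genes, 107 of 229 genes (46.7%) exceeded the olfactory reference and 20 (8.73%) the upper reference, both below the shares over all genes. The tissue lists were described against these shares and carry no test. Of 14 early kidney genes, 12 (85.7%) passed the olfactory and 3 (21.4%) the upper reference. The shares were 71.8% and 34.9% over all genes. They were 82.6% and 27.2% over the transcription factor lists described below, which include some of these genes. EYA1, a transcriptional coactivator needed for kidney formation, gave 8.95, 9.08 and 8.88. Its partner SIX2, which maintains nephron progenitors, gave 8.81, 8.69 and 8.52, and HOXD11 gave 8.59, 8.73 and 8.85. All 3 lay above the upper reference on every array. SALL1 (7.78 ± 0.04, SD, n = 3), CITED1 (7.24 ± 0.15), PAX8 (6.97 ± 0.07), WT1 (6.63 ± 0.14), PAX2 (6.48 ± 0.05) and LHX1 (6.44 ± 0.17), further regulators of the early nephron, lay between the references. MEOX1 (5.50 ± 0.06) stayed below both.

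Genes of the mature nephron stayed low. None of 12 proximal tubule genes, 9 genes of the loop and distal nephron or 12 collecting duct genes passed the upper reference, and 5, 1 and 7 passed the olfactory reference. LRP2, the scavenger receptor megalin, was the highest tubule gene at 6.91, 6.92 and 7.25, and its partner CUBN gave 4.91, 4.82 and 4.74. SLC12A1, the salt transporter of the loop, gave 4.29, 4.23 and 4.19. AQP2, the vasopressin-regulated water channel, gave 6.37, 6.01 and 6.35, and SLC12A3, the distal salt transporter, 6.29, 6.39 and 6.23. Podocytes were represented by 6 genes. PODXL, the surface sialomucin podocalyxin, gave 8.37, 8.44 and 8.46, above the upper reference on each array. NPHS1, the nephrin of the slit diaphragm, gave 5.77, 5.65 and 5.73, next to the olfactory reference, and PTPRO gave 4.58, 4.61 and 4.52.

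The adrenal gland lies beside the kidney, so its genes were read as well. Of 10 adrenal cortex genes, 6 passed the olfactory reference and FDX1 alone the upper, at 7.86, 7.82 and 7.95. FDX1 is the ferredoxin that feeds electrons to steroid-making enzymes and also serves other mitochondrial reactions. CYP11A1 (4.31 ± 0.04, SD, n = 3), which opens steroid synthesis, MC2R (4.32 ± 0.08), the receptor for corticotropin, and CYP17A1 (4.54 ± 0.02) lay below the olfactory reference on every array. The steroidogenic regulator NR5A1 lay just above it at 5.86, 5.85 and 5.81. Among 11 chromaffin and sympathetic genes none passed the upper reference. GATA2 (7.74 ± 0.08) was the highest, TH (6.54 ± 0.07) and DBH (6.03 ± 0.15) of catecholamine synthesis lay between the references, and the granule proteins CHGA (5.19 ± 0.09) and CHGB (5.41 ± 0.08) lay below both.

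Neuronal genes split widely. UCHL1, a ubiquitin hydrolase abundant in neurons, gave 10.24, 10.12 and 10.09, within the brightest twentieth of genes, and ENO2, the neuronal enolase, gave 8.65, 8.82 and 9.23. These were the 2 of 19 above the upper reference. The light neurofilament NEFL gave 7.33, 7.24 and 7.41. NEFM (5.67 ± 0.08, SD, n = 3) and NEFH (5.67 ± 0.03) had signals within their array spread, which does not measure probe binding. Both sat at the olfactory reference. MAP2 (3.94 ± 0.23), STMN2 (4.26 ± 0.06), DCX (4.42 ± 0.16) and ELAVL4 (3.57 ± 0.14), which mark differentiated or migrating neurons, lay below it on every array. Of 9 glial genes, SLC1A3, a glutamate transporter, passed the upper reference at 8.07, 8.04 and 8.02. The astrocyte filament GFAP gave 6.54 ± 0.04, and MBP of myelin gave 5.23 ± 0.08.

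Mesenchymal and epithelial genes were both represented. VIM, the intermediate filament vimentin, gave 11.31, 11.15 and 11.34 and was the brightest gene of all tissue lists. The transcription factor SNAI2 gave 10.11, 10.14 and 10.30, and the cadherin CDH2 gave 9.05, 9.02 and 9.17. The signals of ZEB1 (8.47 ± 0.10, SD, n = 3) and ZEB2 (8.46 ± 0.08) lay within their array spread of each other. These were the 5 of 17 mesenchymal genes above the upper reference. Matrix genes of fibroblasts were low, with DCN at 3.45 ± 0.17 and LUM at 3.38 ± 0.07, while COL1A1 lay at 7.73 ± 0.09. Among 13 epithelial genes, the junction protein TJP1 (9.41, 9.46 and 9.20) and the keratin KRT18 (9.09, 9.24 and 9.11) passed the upper reference on each array. Its partner KRT8 passed on 2 of the 3 arrays, at 7.81, 8.02 and 7.82. The epithelial cadherin CDH1 gave 7.17, 6.97 and 7.22, whereas EPCAM (5.46 ± 0.09) and GRHL2 (5.37 ± 0.09) lay below the olfactory reference.

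Genes of other lineages rarely passed the upper reference. Endothelial genes gave 1 of 10 above the olfactory reference, liver genes 2 of 11, skin and melanocyte genes 2 of 9, blood genes 3 of 12 and lung and fat genes 5 of 9, and none of these passed the upper reference. Muscle genes gave 5 of 12 above the olfactory reference, intestine and pancreas genes 7 of 11, germ line genes 3 of 13 and pluripotency genes 6 of 10, with 1, 1, 1 and 2 above the upper. The medians of these lists ran from 4.64 for the germ line to 5.95 for pluripotency, against 4.18 for olfactory receptors. PTPRC, the CD45 surface protein of white blood cells, gave 3.43, 3.36 and 3.52, PECAM1 of endothelium 4.85, 4.70 and 4.49, and ALB, serum albumin, 4.25, 4.32 and 4.37. Among 12 muscle genes the exception was NKX2-5, a heart transcription factor, at 8.88, 8.82 and 8.66, while TTN (4.49 ± 0.05, SD, n = 3) and MYL2 (4.83 ± 0.14) of the sarcomere were low. Among 11 genes of intestine and pancreas it was CDX2, a gut regulator, at 8.03 ± 0.16. In the germ line list PRAME, a cancer-testis antigen, gave 8.20, 8.15 and 8.14, and DAZL and DDX4, which mark germ cells, gave 4.31 ± 0.16 and 4.08 ± 0.06. Of 10 pluripotency genes, LIN28B, which blocks let-7 maturation, gave 9.05, 8.86 and 8.91, and DNMT3B, a DNA methyltransferase, gave 7.98, 7.79 and 7.84. SOX2 (6.58 ± 0.09) and KLF4 (5.97 ± 0.03) lay between the references, and ZFP42 (4.27 ± 0.15) and DPPA4 (4.35 ± 0.09) below both.

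**Figure D3:**
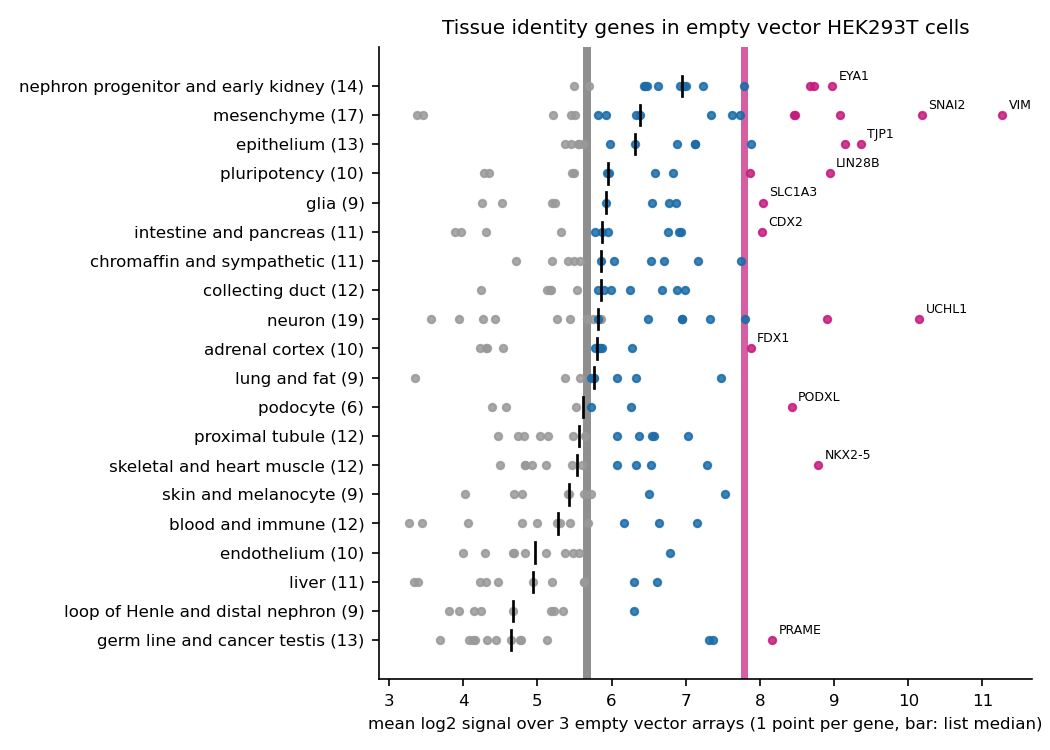
Mean log2 signal over the 3 arrays of the genes of 20 tissue lists, 1 point per gene with the number of genes in brackets and a black bar at the list median. Grey points did not pass the olfactory reference (grey band) on all 3 arrays, blue points passed it and pink points passed the upper reference (pink band) on all 3. Early kidney genes have the highest list median, and VIM, SNAI2 and UCHL1 are the furthest right at 11.27, 10.19 and 10.15.

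Transcription factors were more often above the olfactory reference than genes in general. Of 775 genes in the transcription factor lists, 640 (82.6%) passed it, against 71.8% of all genes, while 211 (27.2%) passed the upper reference, against 34.9%. HOX genes spread from low to bright. They are homeobox genes whose order along each cluster follows the body axis from head to tail. Of 27 measured, 25 passed the olfactory and 9 (33.3%) the upper reference, the latter near the share of all genes. HOXB9 gave 10.72, 10.68 and 10.86, HOXB6 gave 9.79, 9.92 and 10.14, HOXD13 gave 9.79, 9.70 and 9.64, and HOXD10 gave 9.20, 9.64 and 9.72. HOXB9 was above all others on every array, and the next 3 overlapped between arrays. The 2 that did not pass were HOXD12 (4.89, 4.93 and 4.74), which lies between bright neighbours in its cluster, and HOXB1 (5.70, 5.84 and 5.82), held below on array 1. Of paralog groups 1 to 8, 3 of 15 passed the upper reference, with a median of 7.44, and of groups 9 to 13, 6 of 12 did, with a median of 7.95. The A cluster is represented by HOXA2 alone, at 6.85, 7.39 and 7.20, and its other genes were not analysed here.

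**Figure D4:**
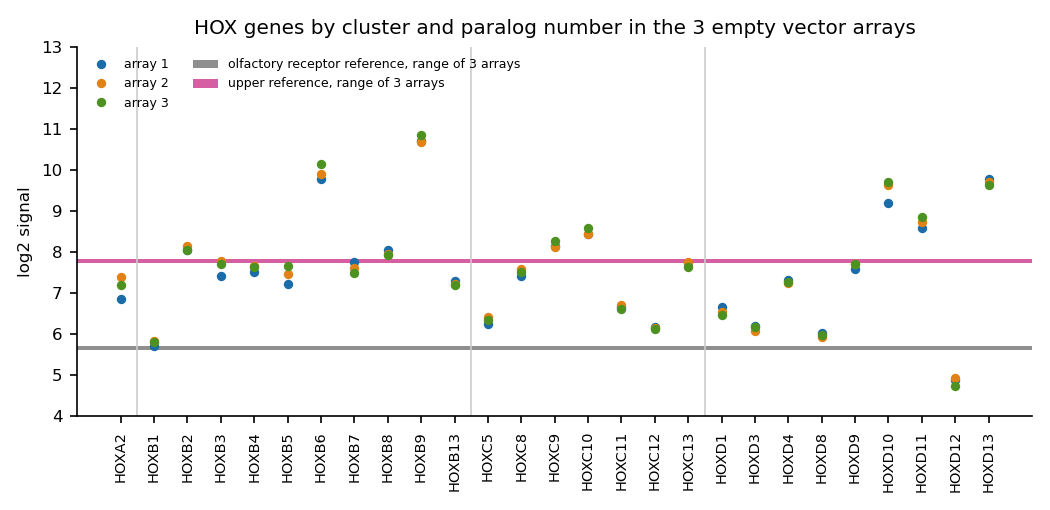
Log2 signal of 27 HOX genes on each of the 3 arrays (1 colour per array), ordered by cluster and paralog number, with vertical lines between clusters. The horizontal bands span the olfactory and upper references of the arrays. HOXB9 reaches 10.86, and HOXD12 at 4.74 to 4.93 is the one gene below the lower band on every array.

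Other homeobox and lineage factors varied by family. All 11 genes of the sine oculis, EYA and DACH families, a network used in kidney, muscle and sense organs, passed the olfactory reference and 5 the upper, led by EYA3 (9.55, 9.69 and 9.72) and SIX4 (9.31, 9.28 and 9.31). Of 19 SOX genes only SOX4 passed the upper reference on every array, at 8.54, 8.93 and 8.95, with SOX9 at 7.78, 7.84 and 7.87. None of 9 PAX genes did so, and PAX6 (7.74 ± 0.03, SD, n = 3) and PAX3 (7.66 ± 0.06) were the highest. Of 6 GATA factors, GATA4 (8.62 ± 0.14) and GATA6 (8.38 ± 0.12), regulators of heart and gut, passed the upper reference and the blood regulator GATA1 (6.26 ± 0.08) did not. Among 17 T-box genes TBX20 (8.63 ± 0.10), TBX18 (8.49 ± 0.04), TBX2 (8.15 ± 0.05) and TBX3 (8.06 ± 0.16) passed, as did MGA (8.52 ± 0.10), which also binds MAX. TBXT, the brachyury gene of early mesoderm, lay at 5.78 ± 0.05. Of 24 LIM homeobox and POU genes POU4F1 alone passed, at 7.95, 8.11 and 8.06.

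Further lists hold factors with broad roles, from which the brightest and dimmest members are given. The median was 7.76 for the AP-1, ATF and CREB genes, 7.09 for forkhead genes, 8.17 for the MYC network, 7.48 for STAT, SMAD and IRF genes, 6.32 for ETS genes and 6.78 for helix-loop-helix genes. JUN, a subunit of AP-1, gave 10.73, 11.19 and 11.26 and was lowest on array 1, and ATF4, of the amino acid response, gave 10.83, 10.87 and 10.81. The forkhead gene FOXK2 gave 10.10, 10.13 and 10.10, and FOXM1, which drives mitotic genes, gave 9.72, 9.67 and 9.62. MYC gave 9.45, 9.40 and 9.55, whereas MYCN (6.06 ± 0.18, SD, n = 3) and MYCL (6.26 ± 0.11) lay between the references. STAT3 gave 9.59 ± 0.07 and the SMAD proteins SMAD5 and SMAD4 gave 9.28 ± 0.13 and 9.07 ± 0.05, while STAT5A gave 5.15 ± 0.04, below the olfactory reference. GABPA, an ETS factor for mitochondrial genes, gave 9.75 ± 0.06, and the ETS factors EHF (4.20 ± 0.16) and SPIC (3.13 ± 0.22) were low. YAP1, the coactivator of the Hippo pathway, gave 8.91, 8.92 and 8.93. The helix-loop-helix inhibitors ID3 and ID2 gave 9.43 ± 0.18 and 9.36 ± 0.19, and the muscle factors MYOD1 and MYF5 gave 5.11 ± 0.04 and 4.83 ± 0.08. The Krüppel-like factor KLF7 (9.68 ± 0.17) was the brightest of its list and KLF8 (3.94 ± 0.13) the dimmest.

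The C2H2 zinc finger genes named ZNF form the largest family of human transcription factors. Of 480 measured, 384 (80.0%) passed the olfactory and 129 (26.9%) the upper reference, with a median of 7.10 against 7.08 for all genes. ZNF146 gave 10.47, 10.55 and 10.50, and ZNF257 gave 10.42, 10.56 and 10.48. ZNF292 gave 9.90, 10.65 and 10.64, so that array 1 was lower by more than the distance between the others. ZNF43 was at 3.06, 3.19 and 3.09 and ZNF847P, a pseudogene, at 2.78, 3.02 and 3.01. Many members are near copies, and probes can be shared between them.

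Receptors were dimmer than transcription factors. Of 354 genes, 206 (58.2%) passed the olfactory and 49 (13.8%) the upper reference, against 71.8% and 34.9% of all genes. Of 17 Wnt and Hedgehog receptors, 16 passed the olfactory and 6 the upper reference, and the Wnt coreceptor LRP6 gave 9.22, 9.64 and 9.61. The Hedgehog pair SMO (8.27 ± 0.11, SD, n = 3) and PTCH1 (8.27 ± 0.08) had signals within their array spread, which is no comparison of transcript amounts. Of 13 TGF-beta and BMP receptors 12 and 4 passed, with BMPR2 at 9.17, 9.39 and 9.28 and TGFBR1 at 8.86, 8.90 and 8.70, while TGFBR2, the partner that TGFBR1 needs, gave 6.43, 6.48 and 6.50. All 4 Notch receptors passed the olfactory reference, and NOTCH2 (9.08, 9.23 and 9.11) passed the upper. Of 52 receptor tyrosine kinases 38 (73.1%) and 12 (23.1%) passed, led by RYK (9.26 ± 0.07), MERTK (8.94 ± 0.17) and IGF1R (8.89 ± 0.17), with FLT3 (4.33 ± 0.14) and MUSK (4.15 ± 0.08) at the bottom.

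Nuclear receptors, which act as transcription factors once bound by ligand, gave 28 of 39 above the olfactory (71.8%, the share of all genes) and 10 (25.6%) above the upper reference, against 34.9% of all genes. NR2C2 and NR2C1, receptors without a settled ligand, led with 8.93, 9.20 and 9.03 and with 8.80, 8.99 and 9.04, and NR2E1 (4.05 ± 0.02, SD, n = 3) and ESRRG (3.87 ± 0.12) were lowest. Cytokine and interferon receptors gave 20 and 9 of 32. IL13RA1 gave 9.14, 9.03 and 9.19, the interferon receptors IFNAR1 and IFNGR1 gave 8.90 ± 0.03 and 8.77 ± 0.10, and IL6ST, the gp130 chain shared by many cytokines, gave 8.75 ± 0.10. OSMR, a partner of that chain, gave 3.96 ± 0.20. Toll-like receptors, which sense microbial molecules, were low. TLR9 was the 1 of 8 above the olfactory reference, at 6.28, 6.57 and 6.33, and TLR4, TLR2 and TLR3 gave 4.26 ± 0.10, 4.43 ± 0.21 and 4.51 ± 0.14. Of 25 integrins 17 and 3 passed, the 3 being ITGAV (8.70 ± 0.04), ITGA5 (8.40 ± 0.08) and their shared partner ITGB1 (8.33 ± 0.04), which receive fibronectin.

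Receptors for transmitters and peptides were also mostly low. None of 35 aminergic and muscarinic receptors and none of 52 peptide and chemokine receptors passed the upper reference on all 3 arrays, and 15 and 19 passed the olfactory reference, with medians of 5.41 and 5.13. ADRA2C, an alpha adrenergic receptor, was highest of the first group at 7.85, 7.60 and 7.70, and VIPR1, for vasoactive intestinal peptide, of the second at 7.81, 7.67 and 7.63. CXCR4, the receptor for CXCL12, gave 6.77, 7.82 and 8.25 and passed the upper reference on arrays 2 and 3. Of 30 receptors for nucleotides, lipids and proteases, F2R (8.30 ± 0.10, SD, n = 3) for thrombin, LPAR3 (8.24 ± 0.11) for lysophosphatidic acid and ADORA2B (8.13 ± 0.06) for adenosine passed the upper reference. Of 47 ion channel receptors for glutamate, GABA and acetylcholine, only CHRNA5, a nicotinic subunit, did, at 9.53, 9.45 and 9.36. GABRG1 (3.34 ± 0.15) was the dimmest of them. Within the families taken as low, TAS2R5 (6.24, 6.60 and 6.72) and TAS2R20 (5.86, 6.60 and 6.77) were the 2 of 24 bitter taste receptors above the olfactory reference, and TAS2R14 (5.30, 6.25 and 6.23) and TAS2R31 (5.63, 6.41 and 6.40) passed on arrays 2 and 3. Without array 1, 8 of the 24 passed.

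MicroRNA genes gave little signal. Of 173 measured, 37 (21.4%) passed the olfactory reference and 2 the upper, with a median of 4.33. The annotation does not say whether a probe set binds the precursor or the mature RNA, so a value is one of the locus. MIR326 gave 8.61, 8.67 and 8.39, MIR339 gave 8.06, 8.04 and 7.91, MIR210 gave 7.93, 7.87 and 7.68, and MIR139 gave 7.64, 7.50 and 7.45. These 4 loci were chosen after their values were seen, from the 5 brightest. Their mature RNAs from RefSeq (GRCh38.p14) are printed to show which seeds, bases 2 to 8 in capitals, the brightest loci carry. The 7 mature RNAs have 7 different seeds.
hsa-miR-326: cCUCUGGGcccuuccuccag
hsa-miR-339-3p: uGAGCGCCucgacgacagagccg
hsa-miR-339-5p: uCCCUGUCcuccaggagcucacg
hsa-miR-210-3p: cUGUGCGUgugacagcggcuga
hsa-miR-210-5p: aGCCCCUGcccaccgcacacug
hsa-miR-139-3p: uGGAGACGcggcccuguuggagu
hsa-miR-139-5p: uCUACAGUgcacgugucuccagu

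The 3 arrays lay close together. Pearson's r over the 29183 probe sets was 0.995 between arrays 1 and 2, 0.993 between 1 and 3 and 0.997 between 2 and 3. It is a description across probe sets, which are not independent replicates. The SD of a gene over the arrays had a median of 0.0988 and a 95th percentile of 0.247. It hardly depended on level, with a pooled SD between 0.121 and 0.140 in every decile of genes and the lowest value in the brightest. A range above 0.5 was found for 748 genes (4.06%), and above 1 for 37 (0.201%). Of these 37, array 1 was lowest in 28, array 3 in 9 and array 2 in none. Among the 748, array 1 was lowest in 367, array 2 in 67 and array 3 in 314. Over all 18417 genes the counts were 5234, 4594 and 8589. Over 2 arrays the median SD was 0.0692 without array 1, 0.0951 without array 2 and 0.0782 without array 3. An SD of 2 values tends to be smaller than one of 3, so these are not directly comparable with 0.0988.

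BHLHE40, a transcriptional repressor of the clock and of the response to low oxygen, varied most, at 8.13, 10.12 and 10.31. HILPDA, a lipid droplet protein induced by low oxygen, gave 8.73, 10.20 and 10.68. SNRPA1, of the U2 spliceosomal particle, gave 6.31, 7.86 and 8.25. In each, array 1 stood apart and arrays 2 and 3 were within 0.5 of each other. The same held in direction for CXCR4 and for ANKRD37 (6.63 on array 1 against a mean of 7.43), PCID2 (7.45, 8.34 and 8.86), ADCY10P1 (5.72, 6.55 and 7.08), MIR186 (4.56, 5.71 and 6.15) and the small nucleolar RNAs SNORD75 (7.54, 8.64 and 9.09), SNORD50B (6.66, 7.87 and 8.11), SNORA29 (6.08, 7.07 and 7.51) and SNORD77 (5.20, 6.41 and 6.76). FOSB, an immediate early gene, instead peaked on array 2, at 6.83, 8.13 and 7.39. After these values were seen, a list of genes known to be induced by low oxygen was written, of which 32 were measured. Array 1 was lowest for 28 of the 32, against 28.4% of all genes, and the low oxygen state of the cultures was not measured.

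**Figure D5:**
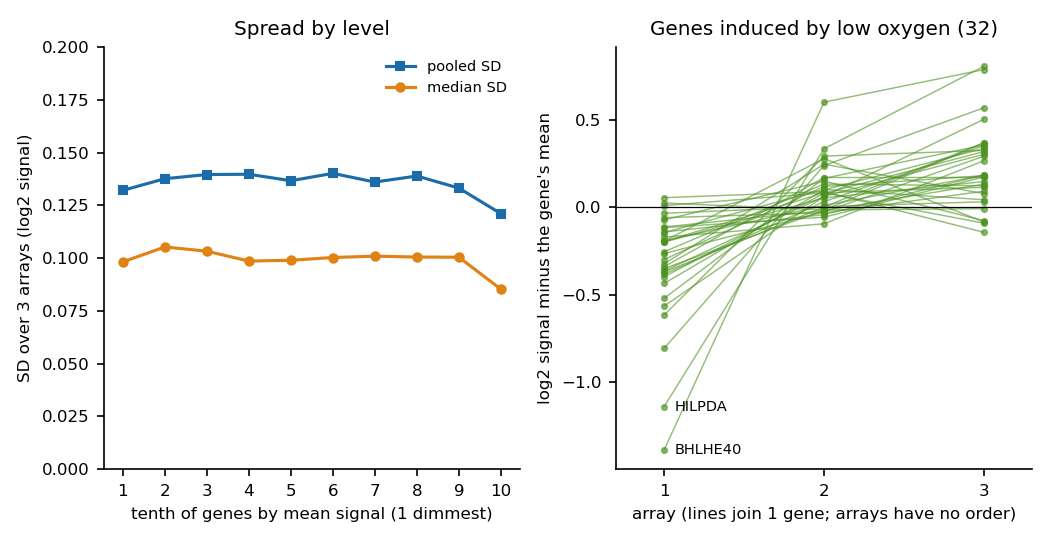
Left, pooled and median SD over the 3 arrays by decile of genes ordered by mean log2 signal. Right, log2 signal of 32 genes induced by low oxygen on each array, minus the gene's mean over the arrays, with 1 line per gene. Array 1 is the lowest for 28 of the 32, and BHLHE40 and HILPDA lie furthest below 0 there.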

How the data were processed

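Total RNA from HEK293T cells given empty pNTAP-2×flag was measured on 3 Affymetrix Human Gene 1.0 ST arrays. The deposited values are log2 signals from RMA at gene level with default settings, per the file headers, and the submitters' processing notes give the program as Affymetrix Expression Console 1.0. RMA brings arrays run together to a common distribution, and whether all 6 arrays were run together is not stated. A build for the probe design is not given in the sources used here. A further deposited table held the same log2 values, with 0 of 29183 probe sets differing.

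The 4114 controls (2904 negative, 1195 positive, 13 spike, 2 ribosomal RNA) were left out. Of the 29183 members, 19460 carried 1 symbol in the platform annotation, 1752 several and 7971 none, and no gene was named from the last 2 kinds. Of the 19460 names, 19429 came from a RefSeq table of current symbols. Where a gene had several probe sets, the one brightest on average was taken. Means and SDs were taken over the arrays, with no test. The negative controls were not used as the main reference because they spread widely, with a 95th percentile of 10.53 to 11.12.

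Named genes were the 25 with the highest mean, up to 4 brightest and 2 dimmest members of each of 65 lists, any member of lists of up to 20, and the 10 with the largest range, among genes above the olfactory reference and among all genes. XIST and Y-linked genes were left out, which leaves 18394 genes in the plot of all levels. The members and lists were chosen with earlier results of these data known. The list of translation factors was trimmed after its values were seen, by leaving out methyltransferases, kinases, binding proteins and pseudogenes that its name pattern had caught. Python 3.11.15, pandas 2.3.3, numpy 2.4.6, scipy 1.17.1 and matplotlib 3.10.9 were used, and the spread calculation was tested on simulated data. Alternatives were other references, normalisations and probe set rules and leaving out each array.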

Additional observations from a re-analysis of the deposited data

How the results depend on the processing

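The levels and ranks held under most settings. Of the 25 brightest genes, 25 were shared after median centring, after quantile normalisation of the 3 arrays and in the second deposited table, 24 without any single array, 23 without mitochondrial probe sets and 19 with the mean of a gene's probe sets. Centring cannot reorder the means, and the second table holds the same values, so neither setting could change these ranks. The count above the olfactory reference was 13230. It was 6420 with the upper reference in its place, and 11515 to 14088 with the 99th or 90th percentile, the negative control median (12024), passing on 2 of 3 arrays, other normalisations or probe set rules, and without single arrays (13274 to 13383). The number of lists with a larger share above the reference than all genes was 32, it was 19 with the upper reference, and 30 to 38 otherwise. Counts within single lists were less steady. They moved in 16 of 65 lists at the 99th percentile, in 8 at the 90th and in 52 with the upper reference. At the 99th percentile, adrenal cortex went from 6 to 1, collecting duct from 7 to 3 and integrins from 17 to 10, while 49 lists stayed the same or similar. The median SD of 0.0988 became 0.0692 to 0.0951 without single arrays, which then rests on 2 arrays. The promoter rho of 0.523 was 0.319 over the 10310 genes above the reference, 0.545 with the mean over all promoters of a gene, and 0.496 over 13405 genes without the olfactory and other low families. Of 279 named genes, 5 changed their call without replicate 1 (MIR186, NKX2-1, SNORD77, TAS2R14 and TAS2R31) and 1 without replicate 3 (CD14). None changed under the other settings run on them, which did not include other references. Array 1 was lowest for 25 of the low oxygen genes without those that led to the list, and for 28 to 31 under centring or without array 2 or 3. The upper reference for lists, the mitochondrial, low oxygen and immediate early settings, the mean over all promoters and the removal of low families were chosen after seeing the data, as was the use of centring and of the second table for the count. The check of protein length was not run, since no protein table was used here. No paired analysis was possible because a single group of arrays was described and no test was made. Dim probe sets limit what can be said: a signal below a reference does not show that a transcript is absent.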

Other observations

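Because BHLHE40, HILPDA and ANKRD37 are known to be induced by low oxygen, a list of 33 such genes was written after their values were seen. Of the 32 measured, 32 passed the olfactory and 22 the upper reference, with a median level of 8.59. Array 1 was lowest for 28 of them (87.5%), against 28.4% of all genes, and array 3 was highest for 24. Without the 3 genes that led to the list, array 1 was lowest for 25 of 29. The median difference of these 29 was 0.28 for array 2 minus array 1 and 0.38 for array 3 minus array 1, against -0.02 and -0.06 over all genes. The glucose transporter SLC2A3 gave 8.03, 8.66 and 9.10, the pyruvate dehydrogenase kinase PDK1 gave 9.59, 10.27 and 10.46, and the collagen hydroxylase P4HA1 gave 10.08, 10.41 and 10.80. VEGFA, the growth factor of blood vessels, gave 8.60, 9.11 and 9.11, and the mitophagy receptor BNIP3 gave 10.68, 10.92 and 11.24. CA12 (6.78, 6.74 and 6.75), ADM (7.52, 7.75 and 7.52), ANGPTL4 (6.19, 6.22 and 5.99) and KDM4B (7.62, 7.69 and 7.52) did not share the pattern. MIR210, a microRNA known to be induced by low oxygen, was highest on array 1. The labels give no culture, density or date for the arrays, and what sets array 1 apart was not tested.

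Immediate early genes, a list also written after values were seen, were highest on array 2 in 15 of 22, against 31.1% of all genes. Without the 6 that are also in the AP-1 list, where the peak of FOSB was seen, the count was 11 of 16. These genes were named after their values were seen. FOS gave 7.20, 7.88 and 7.35, EGR1 gave 9.66, 10.22 and 9.84, CCN1 gave 7.73, 8.24 and 7.86 and DUSP1 gave 9.73, 10.13 and 9.81. MYC (9.45, 9.40 and 9.55) and NR4A1 (7.735, 7.743 and 7.702) moved by less than 0.2. NR4A1 and IER2 (8.068, 8.070 and 7.766) are among the 15, though highest on array 2 by very little. Of the 22, 6 had a range above 0.5. Array 1 was highest for 4, among them SRF (9.01, 8.75 and 8.62), and array 3 for 3, among them JUN (10.73, 11.19 and 11.26).

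By class of gene, the median level was 7.22 for 16900 protein-coding genes, 5.57 for 634 long non-coding RNA genes and 7.99 for 20 small nuclear RNA genes. Among protein-coding genes by chromosome, the median was lowest on X (6.78) and chromosome 11 (6.83) and highest on chromosome 13 (7.52). Without olfactory receptors chromosome 11 stood at 7.24.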
